A study of Mus musculus with 10 samples.

Results

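The 10 genes described here carry out or control the movement of cholesterol and related sterols through the absorptive cells of the small intestine. They were chosen by name, as a list of sterol transport and oxysterol genes, with earlier results of these data known. All 10 were found among the 24368 genes of the deposited table. Expression was measured by RNA-seq of the proximal jejunum of mice, with 5 libraries from animals labelled HuR cKO and 5 from littermates labelled WT. HuR, the product of Elavl1, binds messenger RNAs at stretches rich in U or in A and U, and often makes them more stable. The cKO is a conditional knockout restricted to the intestinal epithelium. Nothing in the sources used here gives the Cre driver, the deleted exons, or the age, sex and diet of the animals. RNA came from the jejunum of both groups with no step of cell isolation named, so each library also holds RNA of the stroma, muscle and immune cells of the gut wall.

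Cholesterol from food and bile enters the enterocyte at its brush border, where NPC1L1 is the main carrier and the target of the drug ezetimibe. Inside the cell part of it is esterified by ACAT2 and leaves in chylomicrons, part passes to high density lipoprotein through ABCA1 on the basolateral side, and part is pumped back into the lumen by the pair ABCG5 and ABCG8. The liver X receptors sense oxysterols, which are hydroxylated forms of cholesterol, and switch on ABCG5, ABCG8, ABCA1 and the ubiquitin ligase MYLIP. CYP27A1 is a mitochondrial enzyme that hydroxylates the cholesterol side chain and so makes one such oxysterol.

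Each value below is a normalised read count, meaning reads of a gene divided by a size factor of its library. Depth, as whole reads recovered from the table, ran from 16063987 to 18927440 per library. The libraries cKO 3 and cKO 5 stood apart from the other 8. For 11 of 15 measured clock genes both lay outside the range of the other 8, and Per2, a repressor of the clock, stood at 12.7 in cKO 3 and 16.03 in cKO 5 while the other 8 ranged from 342 to 749. Results are therefore given with and without them. Elavl1 stood at 556 to 725 in cKO and 630.5 to 709 in WT, and did not differ past the test (limma adjusted p = 0.798). Since the deleted exons are unknown, this level checks nothing of the deletion, and every direction follows the labels. Genes that define the enterocyte were abundant in all libraries, with Fabp2, the intestinal fatty acid binding protein gene, at 214948 to 569523 in cKO and 255661 to 352939 in WT. Among 10 such marker genes Fabp2 alone had a positive log2 fold change in limma (0.31). The other 9 were negative, and the median of these markers was -0.25.

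Cyp27a1 was the gene of the 10 that fell in cKO, 4.75-fold on the fitted scale. The other 9 did not pass the test, which was limma on log2(value + 1) with p-values adjusted over all 14062 genes tested and a threshold of 0.05. Across all genes tested 1.32% passed, and 0.882% passed with a lower level and 0.441% with a higher level in cKO. All 10 passed the filter on low values. Of the 10, 9 had a negative log2 fold change and 1, Abca1, a positive one. The median over the 10 was -0.39, beside 0.01 over all genes tested, of which 49% were negative. Unadjusted limma p-values were under 0.05 for Cyp27a1, Scarb1, Abcg5, Abcg8 and Nr1h2, 5 of the 10, all lower in cKO, against 18.6% of all genes tested in either direction and 10.1% lower in cKO. Without cKO 3 and cKO 5 the median over the 10 was -0.25, and 8 were negative. With library totals in edgeR 7 were negative and the median was -0.27, beside 0.14 over all genes. Negative signs were also seen in 9 of 10 enterocyte markers and in 7 of 8 villus tip genes (medians of -0.25 and -0.68 in limma). Positive signs were seen in 8 of 9 measured crypt genes (median 0.43 in limma). The plot of the values by library shows that Cyp27a1 alone of the 10 sterol genes had groups that did not overlap, against 4.87% of all genes tested.

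**Figure D1:**
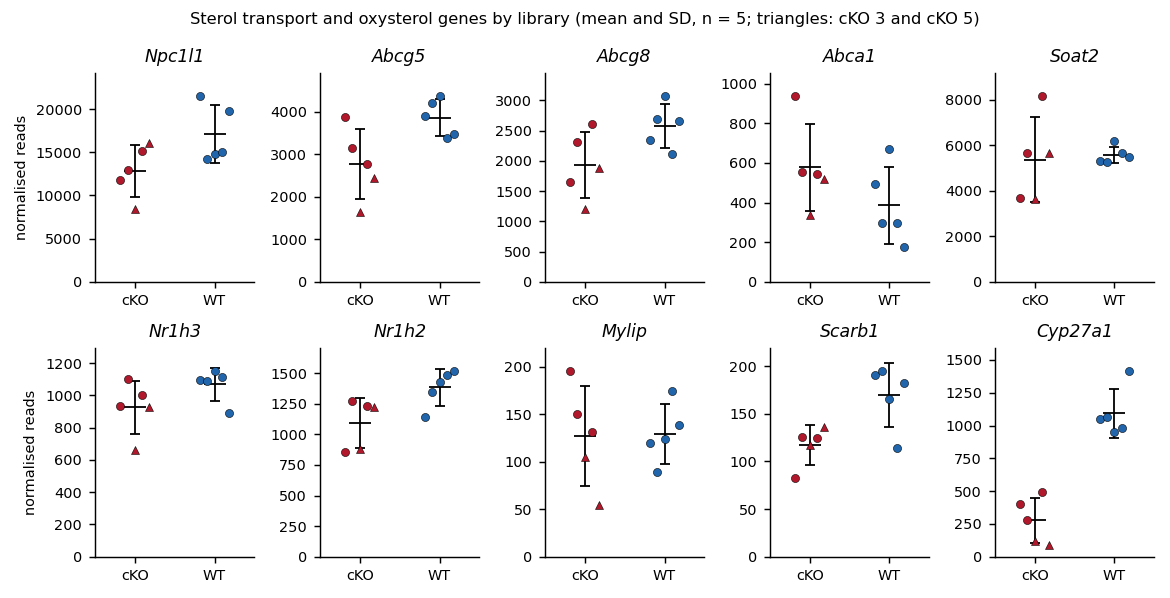
Normalised reads of each of the 10 genes (y axis, linear, starting at 0) in the 5 cKO libraries on the left and the 5 WT libraries on the right of each panel. Points are libraries, triangles are cKO 3 and cKO 5, and bars are the mean and SD. For Cyp27a1 the highest cKO value, 492, lies under the lowest WT value, 949, while the other 9 panels show overlapping groups.

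Uptake at the brush border was represented by Npc1l1 (chromosome 11, 6211013 to 6230143 in mm10, minus strand). Its values were 11821, 12890.1, 8372, 15105 and 16054 normalised reads in cKO 1 to 5, against 21559.9, 14198, 14811, 14974 and 19828 in WT 1, 3, 4, 5 and 6. The 3 lowest of the 10 values were cKO libraries, and cKO 4 and cKO 5 lay inside the WT range. Means were 12848 ± 3019 in cKO and 17074 ± 3373 in WT (SD, n = 5 each), and the difference did not pass the test (log2 fold change -0.42 with a 95% interval of -0.87 to 0.02, limma adjusted p = 0.290). The interval spans levels in cKO from 54.8% to 101% of WT. Without cKO 3 and cKO 5 the log2 fold change was -0.35 (limma adjusted p = 0.486).

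Scarb1, on chromosome 5 (125277087 to 125341094, minus strand), encodes SR-BI, a receptor that exchanges cholesterol between cells and high density lipoprotein and is also found on the enterocyte. Its values were 82.7, 126, 117, 125 and 136 normalised reads in cKO 1 to 5, against 191, 195, 166, 114 and 182 in WT 1, 3, 4, 5 and 6. Of the 5 WT values 4 lay above every cKO value, and WT 5 lay inside the cKO range. Means were 117 ± 20.5 in cKO and 169.6 ± 33.3 in WT (SD, n = 5 each; log2 fold change -0.52 with a 95% interval of -0.95 to -0.10, limma adjusted p = 0.183). Scarb1 had the second lowest adjusted p of the 10 and still missed the threshold. The log2 fold change was -0.61 without cKO 3 and cKO 5 (limma adjusted p = 0.307), so its size did not rest on those libraries.

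Return of sterols to the lumen depends on Abcg5 and Abcg8, which encode the partners of 1 heterodimeric pump and lie head to head on chromosome 17. Abcg5 runs from 84658234 to 84683011 on the minus strand and Abcg8 from 84676302 to 84700333 on the plus strand. In RefSeq the Abcg5 start at 84683011 and the nearest Abcg8 start, at 84683121, are 110 bases apart. Abcg8 has a further start at 84676302, inside the span of Abcg5, with its own window at chr17:84676052-84676351. The promoter windows of the 2 near starts run from 250 bases before to 50 after each start. They share the 209 bases chr17:84682962-84683170 (GRCm38.p6, plus strand). That stretch is shown because 1 sequence lies at both of these starts. Capitals mark AGATAA, the motif of GATA factors, searched on both strands with overlapping matches counted.
Abcg5 and Abcg8 shared promoter: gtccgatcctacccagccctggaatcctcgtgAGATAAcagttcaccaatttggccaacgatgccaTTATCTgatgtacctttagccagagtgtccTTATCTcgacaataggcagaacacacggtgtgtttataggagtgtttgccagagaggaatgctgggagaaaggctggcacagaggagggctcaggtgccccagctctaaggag
It holds 3 matches, and the window of the further Abcg8 start holds 0. Of 32851 RefSeq promoter windows of 300 bases, 11.2% hold at least 1 match. Gata4, the gene of the GATA factor of the proximal intestine, stood at 1821 ± 585 in cKO and 1946 ± 252 in WT (SD, n = 5 each; a log2 fold change of -0.14 with limma adjusted p = 0.740). A match of letters does not show binding.

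Abcg5 had 3873, 3138, 1629.6, 2763 and 2440.1 normalised reads in cKO 1 to 5, against 3893, 4200.1, 4377, 3371 and 3464 in WT 1, 3, 4, 5 and 6. The cKO 1 value lay inside the WT range and the other 4 cKO values lay below it. Means were 2769 ± 831 in cKO and 3861 ± 442 in WT (SD, n = 5 each; log2 fold change -0.53 with a 95% interval of -0.97 to -0.09, limma adjusted p = 0.190). Abcg8 had 1645, 2309, 1206, 2605 and 1885 normalised reads in cKO 1 to 5, against 2351, 2693, 3078, 2105 and 2652 in WT 1, 3, 4, 5 and 6. Here cKO 2 and cKO 4 lay inside the WT range. Means were 1930.1 ± 549 in cKO and 2576 ± 369 in WT (SD, n = 5 each; log2 fold change -0.45 with a 95% interval of -0.88 to -0.03, limma adjusted p = 0.244). Neither difference passed the test. Both genes were lowest in cKO 3, and without cKO 3 and cKO 5 the log2 fold changes were -0.25 for Abcg5 (limma adjusted p = 0.572) and -0.25 for Abcg8 (limma adjusted p = 0.612). Annotated exons of the pair overlap over 82 bases on opposite strands, 3.02% of the exonic bases of Abcg5 and 2.19% of those of Abcg8. With the strand setting of the counting not given, reads there cannot be assigned with certainty.

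A ratio of 2 genes within a library does not depend on the size factor, and 3 such ratios were tested with a two-sided exact permutation test over the 10 libraries, where the smallest possible p is 0.00794. The log2 ratio of Abcg5 over Abcg8 was 1.23, 0.44, 0.43, 0.08 and 0.37 in cKO 1 to 5, against 0.73, 0.64, 0.51, 0.68 and 0.39 in WT 1, 3, 4, 5 and 6. The WT values lay within the cKO range, which was set by cKO 1 at the top and cKO 4 at the bottom. The mean was 0.51 ± 0.43 in cKO and 0.59 ± 0.14 in WT (SD, n = 5 each), a difference of -0.07 (exact permutation p = 0.714, adjusted over the 3 ratios p = 0.714). Without cKO 1 the difference was -0.25 (exact permutation p = 0.0476, unadjusted), and without cKO 4 it was 0.03. The log2 ratio of Npc1l1, the importer, over Abcg5, part of the exporter, averaged 2.24 ± 0.43 in cKO and 2.13 ± 0.37 in WT (SD, n = 5 each; exact permutation p = 0.690, adjusted p = 0.714). Neither ratio differed past the test in the 5 against 5 comparison.

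Soat2, at 102150526 to 102163469 on chromosome 15 (plus strand), encodes ACAT2, which esterifies absorbed cholesterol for packing into chylomicrons. Its values were 3688, 5647, 3639.7, 8179 and 5667 normalised reads in cKO 1 to 5, against 5301, 5278, 6166, 5637 and 5490.1 in WT 1, 3, 4, 5 and 6. The spread differed between the groups in these libraries, with a coefficient of variation of 34.7% in cKO and 6.49% in WT, and this difference in spread was not tested. Means were 5364 ± 1863 in cKO and 5574 ± 362 in WT (SD, n = 5 each; log2 fold change -0.12 with a 95% interval of -0.57 to 0.33, limma adjusted p = 0.794). The interval leaves room for levels from 67.4% to 125% of WT. The sign was positive, at 0.04, in edgeR with library totals, where the median over all genes was also higher, at 0.14. In the authors' deposited table the log2 fold change of Soat2 was 0.0066 (authors' adjusted p = 0.993), from a set of libraries that is not stated. Soat1, the ACAT gene of most other cells, stood at 165 ± 29.8 in cKO and 192 ± 31.5 in WT (SD, n = 5 each; a log2 fold change of -0.22 with limma adjusted p = 0.541).

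Abca1 (chromosome 4, 53030787 to 53159895, minus strand) encodes the basolateral cholesterol and phospholipid exporter that lipidates apolipoprotein A-I. It was the gene of the 10 with a positive log2 fold change. Its values were 939.7, 553, 339, 544 and 520.2 normalised reads in cKO 1 to 5, against 493, 298, 670.5, 296 and 177 in WT 1, 3, 4, 5 and 6. Values spread widely in both groups, and cKO 1 stood above all other libraries. Means were 579 ± 219.7 in cKO and 387 ± 195 in WT (SD, n = 5 each; log2 fold change 0.65 with a 95% interval of -0.07 to 1.38, limma adjusted p = 0.315). The log2 fold change was 0.91 without cKO 3 and cKO 5 (limma adjusted p = 0.357), and 0.46 without cKO 1 (limma adjusted p = 0.496). Its promoter is shown because a liver X receptor element of the DR4 type, a direct repeat with 4 bases between its parts, is a textbook feature of this gene. Capitals mark TGACCG and TAACC with 4 bases between them, letters taken from this window after it was read, and the E-box CACGTG, to which the clock factors CLOCK and BMAL1 bind in many genes. The window is chr4:53159846-53160145 (RefSeq, GRCm38.p6, minus strand).
Abca1 promoter: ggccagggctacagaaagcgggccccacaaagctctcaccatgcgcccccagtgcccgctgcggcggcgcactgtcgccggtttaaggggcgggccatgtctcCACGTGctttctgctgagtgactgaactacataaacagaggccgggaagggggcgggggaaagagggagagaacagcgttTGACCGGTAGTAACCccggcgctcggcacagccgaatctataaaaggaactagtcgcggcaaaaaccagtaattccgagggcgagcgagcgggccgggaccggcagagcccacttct
Those exact letters were found in 4 of 32851 promoter windows on either strand, 0.0122%, and CACGTG in 7.15%. Since the letters came from the Abca1 window, its match was fixed in advance. The share is that of 1 exact string and does not show how common DR4 elements are. Among the 8 of the 10 genes with a window in the table, CACGTG was found for Abca1 alone.

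The liver X receptors are nuclear receptors that pair with RXR. Nr1h3, the gene of LXR alpha (chromosome 2, 91184061 to 91202834, minus strand), had 935, 1100.4, 659, 1004 and 926 normalised reads in cKO 1 to 5, against 1092, 1088, 1154, 1115 and 888 in WT 1, 3, 4, 5 and 6. The groups overlapped, with cKO 3 lowest. Means were 925 ± 164 in cKO and 1068 ± 104 in WT (SD, n = 5 each; log2 fold change -0.22 with a 95% interval of -0.57 to 0.12, limma adjusted p = 0.480). Nr1h2, the gene of LXR beta (chromosome 7, 44549616 to 44553951, minus strand), had 852, 1275, 881, 1233 and 1221 normalised reads in cKO 1 to 5, against 1144, 1346, 1424, 1480.4 and 1520.3 in WT 1, 3, 4, 5 and 6. Here cKO 1 and cKO 3 lay below every WT library and the other 3 cKO values lay inside the WT range. Means were 1092 ± 208 in cKO and 1383 ± 149 in WT (SD, n = 5 each; log2 fold change -0.36 with a 95% interval of -0.71 to -0.0044, limma adjusted p = 0.263). Neither receptor gene passed the test, and the log2 ratio of Nr1h3 over Nr1h2 averaged -0.24 ± 0.22 in cKO and -0.37 ± 0.26 in WT (SD, n = 5 each; exact permutation p = 0.413, adjusted p = 0.714). Mylip (chromosome 13, 45389742 to 45412022, plus strand) is a liver X receptor target whose product marks the low density lipoprotein receptor for breakdown. Its values were 196, 150.1, 105, 131 and 54.5 normalised reads in cKO 1 to 5, against 119.7, 89.1, 124, 175 and 139 in WT 1, 3, 4, 5 and 6. The cKO values ran wider than the WT values on both sides. Means were 127 ± 52.5 in cKO and 129 ± 31.1 in WT (SD, n = 5 each; log2 fold change -0.10 with a 95% interval of -0.72 to 0.51, limma adjusted p = 0.880). The sign of Mylip turned to 0.31 without cKO 3 and cKO 5 and to 0.04 with library totals in edgeR. In the authors' deposited table it was -0.28 (authors' adjusted p = 0.698), from a set of libraries that is not stated.

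**Figure D2:**
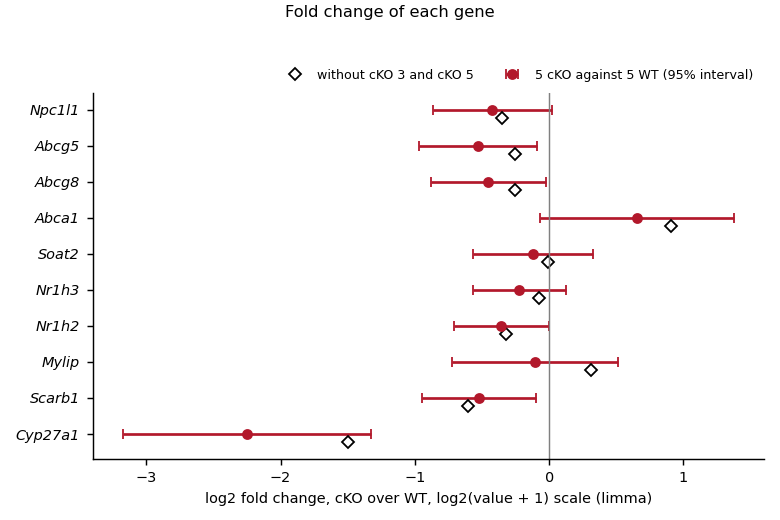
Fitted log2 fold change of each gene, cKO over WT (x axis, log2(value + 1) scale), with its 95% interval from limma (filled points) and the estimate without cKO 3 and cKO 5 (open diamonds). The interval of Cyp27a1, -3.17 to -1.32, lies apart from those of the other 9, and only Abca1 lies to the right of 0 among the filled points.

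Cyp27a1 lies on the plus strand of chromosome 1, at 74713574 to 74737892 (ENSMUSG00000026170). It had 399, 284, 118, 492 and 90.6 normalised reads in cKO 1 to 5, against 1047, 1068, 949, 981 and 1419.6 in WT 1, 3, 4, 5 and 6. All 5 cKO values lay below all 5 WT values, and cKO 3 and cKO 5 were the lowest of the 10. Of all genes tested, 3.01% had every cKO value below every WT value. Means were 277 ± 174 in cKO and 1093 ± 189 in WT (SD, n = 5 each), and Cyp27a1 fell to 21.0% of its WT level on the fitted scale (log2 fold change -2.25 ± 0.42 SE, 95% interval -3.17 to -1.32, limma adjusted p = 0.0326). On the recovered reads the fall was 3.97-fold by the quasi-likelihood test of edgeR (adjusted p = 0.0407, with 1.29% of all genes called) and 3.97-fold by DESeq2 (adjusted p = 1.31e-05, with 4.67% called). In the authors' deposited table the log2 fold change was -1.60 (authors' adjusted p = 0.0262), with 2.49% of its 24368 genes under 0.05, those that limma did not test included. Whether that comparison used the same 10 libraries is not stated, so its fold changes are given as values and not compared with those computed here. In that deposited table the other 9 genes had adjusted p-values of 0.101 (Abcg5) or more.

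The fall was smaller without the 2 libraries that stood apart in clock genes. With cKO 1, 2 and 4 alone the cKO mean was 392, and Cyp27a1 fell 2.82-fold (log2 fold change -1.50, limma adjusted p = 0.00510, with 0.399% of all genes called). Of 23 alternatives the sign was kept in all, and the call was lost in 9. It was lost with any 1 WT library left out, at limma adjusted p = 0.0666 without WT 1, 0.0874 without WT 3, 0.0784 without WT 4, 0.0634 without WT 5 and 0.0784 without WT 6, with log2 fold changes between -2.30 and -2.15. It was also lost without cKO 3 (-2.01, limma adjusted p = 0.0622), with no filter on low values (limma adjusted p = 0.0574), and in the 8 libraries whose number both groups share, with those numbers as a block (limma adjusted p = 0.105, with 0.925% of all genes called) or without it (0.103).

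**Figure D3:**
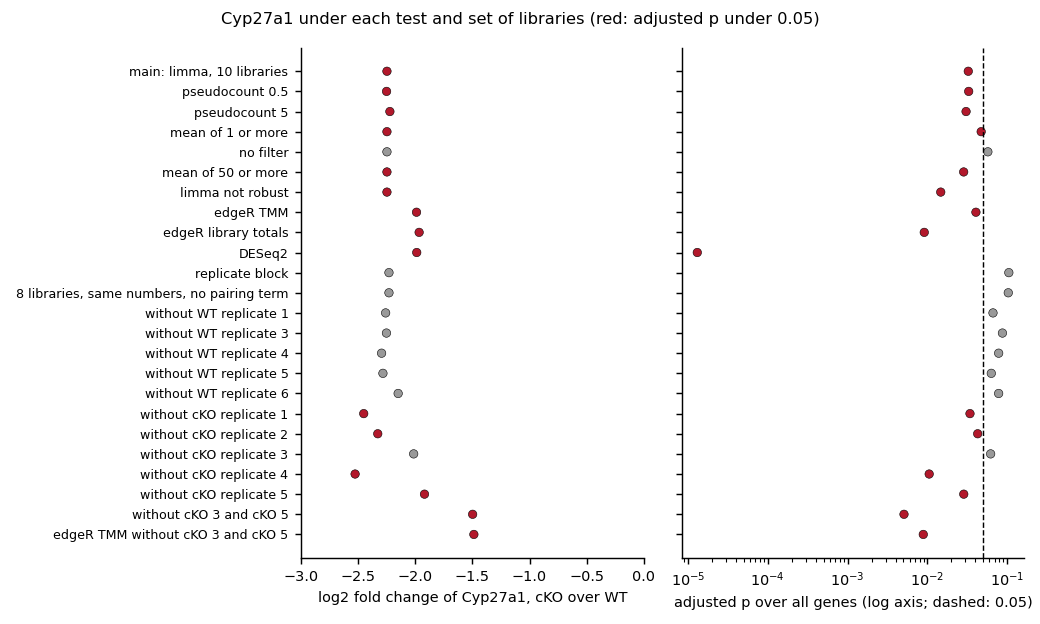
Log2 fold change of Cyp27a1, cKO over WT (left), and its adjusted p over all genes (right, log axis), with 1 row for each test or set of libraries. The fold change runs from -2.53 to -1.49 over the 23 alternatives, and grey points, those with an adjusted p of 0.05 or more, lie just right of the dashed line, up to 0.105.

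The sequences of Cyp27a1 are shown as the gene whose level fell. The promoter window is chr1:74713285-74713584 (RefSeq, GRCm38.p6, plus strand), with capitals at the GC box GGGCGG and the CCAAT box, both searched on both strands.
Cyp27a1 promoter: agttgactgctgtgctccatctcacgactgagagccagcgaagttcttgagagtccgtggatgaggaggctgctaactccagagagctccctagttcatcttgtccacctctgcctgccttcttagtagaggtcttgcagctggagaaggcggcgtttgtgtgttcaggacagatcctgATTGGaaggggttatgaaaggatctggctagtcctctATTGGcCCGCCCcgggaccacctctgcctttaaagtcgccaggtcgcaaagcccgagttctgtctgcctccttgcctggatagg
It holds 1 GC box and 2 CCAAT boxes, and 35.7% and 37.4% of all promoter windows hold at least 1 GC box or 1 CCAAT box. Neither AGATAA nor AGGTCA, the hexamer bound by many nuclear receptors, occurs in this window; AGGTCA is in 16.3% of all windows and, among these genes, in that of Npc1l1. In the 3' untranslated region, where HuR sites are often found, the pentamer ATTTA was counted on the transcript strand, with overlapping matches counted. The region of Cyp27a1 is 233 bases long in GENCODE M21 and holds 2 matches. The first starts at base 209 after the stop codon. The stretch from 12 bases before it to the last base of the second match is shown, with ATTTA in capitals.
Cyp27a1 3' end: tccttgggtatgATTTAaaataaaATTTA
Of 12563 genes tested with an annotated region, 66.5% hold ATTTA, at a median region length of 975 bases, and so do 6 of the 10 genes here. Abca1, with a region of 3156 bases, holds 6 matches and Abcg8, with 1534 bases, holds 3. None of the 10 holds the longer element, ATTTA with TT on both sides, which 6.92% of all such genes hold.

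Levels of different genes were compared per kilobase of gene length, as normalised reads per kb. Npc1l1 had 2876 ± 676 in cKO and 3822 ± 755 in WT (SD, n = 5 each), the highest of the 10 in both groups. Soat2 followed, at 2424 ± 842 in cKO and 2519 ± 163 in WT. Abcg5 came next, at 1021 ± 306 in cKO and 1424 ± 163 in WT. In WT the ranges of these 3 did not overlap with each other, while in cKO those of Npc1l1 and Soat2 did. Abcg8 had rank 4 in both groups, at 515 ± 146 in cKO and 687 ± 98.4 in WT. Cyp27a1 had rank 5 in WT, at 503 ± 86.9, with a range that overlapped those of its neighbours Abcg8 and Nr1h3. In cKO it had rank 7, at 127 ± 80.2, below Nr1h2 with no overlap. Mylip, Abca1 and Scarb1 were the lowest 3 in both groups, and Scarb1 was last, at 13.8 ± 2.41 in cKO and 19.95 ± 3.91 in WT. In WT the ranges of neighbours overlapped among these 3, and in cKO the range of Scarb1 lay below that of Mylip.

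**Figure D4:**
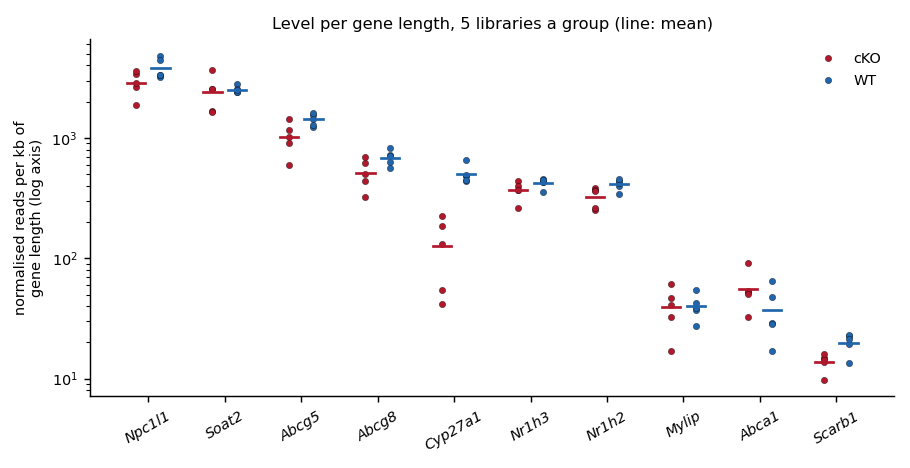
Normalised reads per kb of gene length (y axis, log scale) in the 5 cKO libraries (left of each pair) and the 5 WT libraries (right), with genes ordered by their WT mean. Points are libraries and lines are means. In WT the mean of Cyp27a1, 503, stands above those of Nr1h3, 424, and Nr1h2, 412, with overlapping ranges, and in cKO Cyp27a1 lies under both.

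Other genes of the same pathways were read from lists chosen by function, with earlier results of these data known. Of 24 genes of sterol uptake and traffic inside the cell, 1 fell and none rose, with a median log2 fold change of -0.04. The 1 was Lipa, the lysosomal acid lipase that frees cholesterol from its esters. Lipa had 1157, 1198, 691, 1316 and 1105 normalised reads in cKO 1 to 5, against 2197, 1989, 1893, 1728 and 2005 in WT 1, 3, 4, 5 and 6, with no overlap between the groups (log2 fold change -0.87 ± 0.18 SE, limma adjusted p = 0.0307). Without cKO 3 and cKO 5 the call was lost, at -0.68 (limma adjusted p = 0.0941). Of 22 partners and targets of the liver X receptors outside the 10, 1 fell and none rose, with a median of -0.15. The 1 was Srebf1, a transcription factor of lipid synthesis that the receptors switch on. Its values were 301, 410.1, 364, 564 and 485 normalised reads in cKO 1 to 5, against 857, 654, 779.6, 1385 and 1273 in WT 1, 3, 4, 5 and 6, again with no overlap (log2 fold change -1.19, limma adjusted p = 0.0215). It was -1.20 without cKO 3 and cKO 5 (limma adjusted p = 0.0863). Abcg1, the cholesterol exporter that is a receptor target in macrophages, gave log2 fold change -0.03, limma adjusted p = 0.954.

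Of 18 measured genes of oxysterol and side chain metabolism outside the 10, none passed, with a median log2 fold change of -0.25; at an unadjusted p under 0.05 4 were lower and none higher, against 10.1% lower and 18.6% in either direction over all genes tested. Among them Vdr, the gene of the vitamin D receptor, gave log2 fold change -0.73, limma adjusted p = 0.0976. Acox2, the peroxisomal oxidase of branched bile acid side chains, had 324, 222, 34.9, 402 and 109.8 normalised reads in cKO 1 to 5, against 677, 609, 729.9, 700.3 and 959 in WT 1, 3, 4, 5 and 6. Its groups did not overlap, its fold change was near that of Cyp27a1 and its spread was wider (log2 fold change -2.15, limma adjusted p = 0.106). Without cKO 3 and cKO 5 Acox2 passed, at -1.24 (limma adjusted p = 0.0225). The redox partners that feed electrons to mitochondrial P450 enzymes were Fdx1 (log2 fold change 0.02, limma adjusted p = 0.955) and Fdxr (log2 fold change -0.70, limma adjusted p = 0.184). Among other oxysterol enzymes, Cyp7b1 averaged 27.5 ± 7.37 in cKO and 18.2 ± 6.28 in WT (SD, n = 5 each). Ch25h lay under the filter, at 1.27 to 8.82 in cKO and 3.04 to 11.7 in WT.

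None of 12 genes of the pathway of SREBP2, the factor activated when cell sterols are low, passed the test, and their median was 0.01. The lowest p-values there were those of Insig2 (log2 fold change 0.37, limma adjusted p = 0.245) and Idi1 (log2 fold change 0.46, limma adjusted p = 0.272). None of 12 measured regulators of enterocyte sterol genes passed either (median -0.09). Among them Nr1h4, the bile acid receptor FXR, gave log2 fold change 0.76, limma adjusted p = 0.126, and Ppara, a fatty acid receptor, log2 fold change -0.75, limma adjusted p = 0.238. In edgeR with library totals the median over all genes was 0.14. The medians of the traffic and regulator lists were 0.10 and 0.10 there, opposite in sign to those in limma, and that of the SREBP2 list was 0.13.

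**Figure D5:**
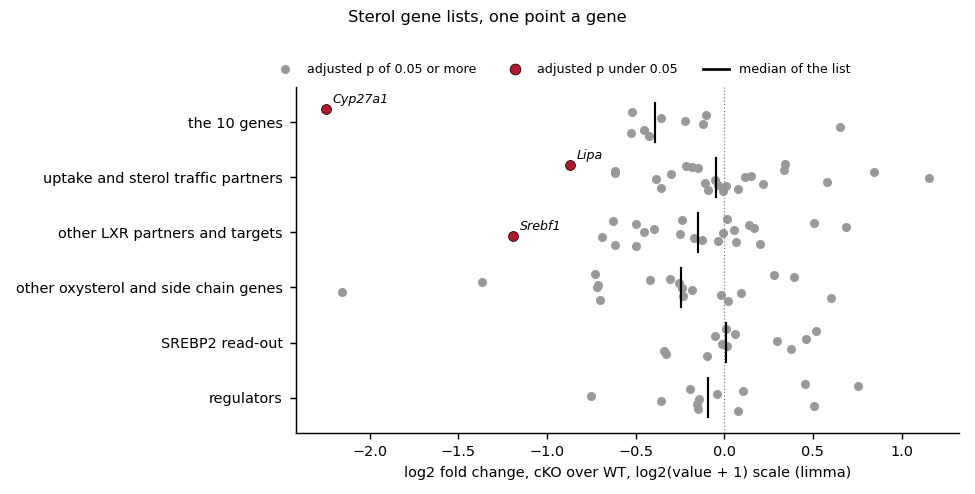
Log2 fold change, cKO over WT, of every measured gene of the 10 and of 5 further lists (x axis, log2(value + 1) scale, limma). Each point is 1 gene, red marks an adjusted p under 0.05 over all genes, and lines are list medians; Cyp27a1, Lipa and Srebf1 are the 3 genes in red.

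The genes whose profile over the 10 libraries was most like that of Cyp27a1 were found among 8573 others with a mean of 100 or more. The measure was the mean absolute difference of log2 values standardised over the libraries. They were Cd151, a tetraspanin gene (0.187), Atl2, a gene of endoplasmic reticulum membrane shape (0.198), and Mertk, a receptor kinase gene for the uptake of dead cells (0.215). Mertk had 1348, 1335, 439, 1672 and 566 normalised reads in cKO 1 to 5, against 2906, 2244, 2155, 2935 and 3010.3 in WT 1, 3, 4, 5 and 6. As in Cyp27a1, cKO 3 and cKO 5 were lowest and the groups did not overlap. These profiles share the libraries and their size factors, and the likeness is a description. Abcg5 and Abcg8, neighbours with 1 shared promoter stretch, were not among the 3 nearest genes of each other. With only 3 of 8573 genes kept for each, this does not show how alike their profiles are.

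Markers of other cells and of position in the villus were read beside these results. In bulk tissue fewer cells of a type and less RNA per cell cannot be told apart. The summed level of 8 villus tip genes was 118018 to 244240 normalised reads in cKO and 296096 to 369406 in WT, with no overlap, and none of the 8 passed in limma (median log2 fold change -0.68). In edgeR with library totals 1 of the 8 passed, Enpp3, at -0.92 (edgeR adjusted p = 0.0237), against -1.02 in limma (adjusted p = 0.0505). No gene of the list was at 0 in any library, and 1 of them, Apoa4, is in the enterocyte list too. The part of villus tip RNA in the lower Cyp27a1 was not tested. The sum of 10 jejunal enterocyte genes overlapped between the groups, at 710984 to 1324080 normalised reads in cKO and 925755 to 1095390 in WT, and none passed. Of these enterocyte genes 9 had a negative log2 fold change and 1, Fabp2, a positive one, with a median of -0.25. Without cKO 3 and cKO 5, 5 were negative and 5 positive, with a median of -0.04. The villus tip and enterocyte sums were both lowest in cKO 3, which was also the lowest cKO library for 6 of the 10 sterol genes. Of 6 endothelial genes 1 rose, Lyve1, and their sum was 863 to 1652 normalised reads in cKO and 413 to 566 in WT. Of 6 fibroblast genes 2 rose, Col1a1 and Col3a1, and their sum was 6111 to 9882 normalised reads in cKO and 4706 to 6095 in WT. The groups did not overlap in either sum, though the fibroblast sums nearly met. The part of these cells in the results was not tested. Macrophages express Abca1, Nr1h3 and Cyp27a1 too; none of their 10 markers passed, with sums of 5774 to 7380.1 normalised reads in cKO and 5095 to 9371 in WT. The sums of smooth muscle, lymphocyte, crypt and adipocyte genes also overlapped, and none of their genes passed. In limma 8 of 9 measured crypt genes and all 6 smooth muscle genes were positive, with medians of 0.43 and 0.14. All 6 endothelial and all 6 fibroblast genes were positive too, with medians of 0.74 and 0.38. The medians of the lymphocyte and adipocyte genes were -0.13 and 0.01. Of 3 measured genes of the far end of the small intestine 1 rose, Slc51b, part of a basolateral bile acid and steroid exporter (log2 fold change 0.79, limma adjusted p = 0.0421), and none of 5 duodenal genes passed. Of these 4 genes Lyve1 still passed without cKO 3 and cKO 5 (log2 fold change 1.47, limma adjusted p = 0.0225), while Col1a1, Col3a1 and Slc51b gave limma adjusted p-values of 0.193, 0.109 and 0.150. Fabp6, the ileal bile acid binding protein gene, was at 3.81 or less in cKO and at 0 in all WT libraries. Pancreas genes summed to 5.09 normalised reads or less and liver genes to 37.9 or less in every library, with Cpa1, a pancreatic carboxypeptidase gene, at 0 in all 10.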

How the data were processed

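The proximal jejunum of 5 HuR cKO mice and 5 WT littermates was profiled by RNA-seq of total RNA, 1 library a mouse. Per the submitters' processing notes the tools were CASAVA, HISAT2 2.0.5, featureCounts 1.5.0-p3 and DESeq2 1.20.0, with mm10. The strand setting and annotation are not given in these notes. The table deposited by the authors holds, per gene and library, a normalised signal, namely read counts divided by 1 size factor a library, and the authors' log2 fold changes and p-values. Whole reads were recovered from the steps of the deposited values, and all values came out whole within 0.001. Precision is set by 16063987 to 18927440 reads and 5 animals a group. There were 2 further columns of per-sample values, not used here.

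Genes with a mean of 10 or more were tested with limma 3.58.1 (R 4.3.3) on log2(value + 1), with trend and robust settings and Benjamini-Hochberg adjustment over all genes. Fold changes on this scale understate those of low genes. The recovered reads were tested with edgeR 4.0.16 (quasi-likelihood, TMM or library totals) and DESeq2 1.42.0. The other alternatives were the pseudocount, the filter, the robust setting, replicate numbers as a block, and libraries left out. Gene lengths for the levels per kb came from the deposited table. Exon overlaps and 3' untranslated regions came from GENCODE M21, and promoters from RefSeq (GRCm38.p6), without entries for Soat2 and Scarb1.

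The 10 genes and all lists were chosen with earlier results of these data known. All 10 genes were named. From each pathway list the genes past adjusted p 0.05 were named, or else the 2 with the lowest p, and for Cyp27a1 the 3 most alike genes. Values of 1 gene that this rule names are not reported here. Fabp2, Per2, Gata4, Soat1, Abcg1, Acox2, Fdx1, Fdxr, Cyp7b1, Ch25h, Fabp6 and Cpa1 lie outside that rule and were named after their values were seen, as were the cell marker genes that passed.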

Additional observations from a re-analysis of the deposited data

Results flagged for a closer look

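In 20 groups of 5 libraries (10 genes, cKO and WT) the highest or lowest value was set against the spread of the others, and 2 WT values stood apart, both in WT 6. Chance alone picks out about 1 in 20 groups. Cyp27a1 was highest in WT 6, at 1419.6 normalised reads, with a gap of 0.747 of the range of WT to the next library. Without WT 6 its log2 fold change was -2.15 (limma adjusted p = 0.0784). Nr1h3 was lowest of the WT libraries in WT 6, at 888 normalised reads, with a gap of 0.754 of the range. In no cKO group did a value stand apart by this measure.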

How the results depend on the processing

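The 186 genes past adjusted p 0.05 became 711 with DESeq2, 56 without cKO 3 and cKO 5 (52 with edgeR there, a choice made after seeing the data), and 30 (without WT 4) to 611 (without cKO 4) with 1 library left out. Of the 10 sterol genes 1 passed, but 0 with no filter and 0 to 1 with 1 library left out, Cyp27a1 in each case. Soat2 turned positive with library totals (0.0399), with 1 library left out (-0.29 to 0.0022, the last without cKO 3) and in edgeR without cKO 3 and cKO 5 (0.0612). Mylip did so with library totals (0.0392), with 1 library left out (-0.29 to 0.17, above 0 without WT 5 or cKO 5) and without cKO 3 and cKO 5 (0.31, and 0.30 in edgeR). With 1 library left out the difference of log2 Abcg5 over Abcg8 ran from -0.25 to 0.0328, and that of Npc1l1 over Abcg5 from -0.0159 to 0.26, or -0.10 without cKO 3 and cKO 5. The cause was not tested in any of these. The other 8 genes kept their direction in all 23 alternatives, and 7 of them passed in none.

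With the replicate number as a block, possible in the 8 libraries whose numbers both groups share, 130 genes passed and 0 of the 10, against 88 and 0 in those libraries without the block. Cyp27a1 was -2.23 with the block. Deviations from the group means correlated at 0.118, 0.02, -0.11 and 0.10 for numbers 1, 3, 4 and 5, and 1 of 4 WT libraries was closest to the cKO library of its number, so the numbers were not taken to pair animals. With 5 animals a group, intervals still span changes such as 54.8% to 101% of WT for Npc1l1.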
